A study of Mus musculus with 2 samples.

Results

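Among endothelial cells sorted from mouse tumours, 169 of 4224 cells scored highest for 6 transcripts of postcapillary venules: Ackr1, Selp, Sele, Fbln2, Igfbp5 and Lbp. The cells ranked were those with at least 2000 genes detected, taken from 6194 deposited cells. The score was the mean of the 6 deposited natural log values in a cell, and the top 4% of the ranked cells of both libraries together are called the venular cells. The venular cells were chosen by these 6 measured values, so every contrast between the venular cells and the other ranked cells is a description. The tissue was tumour of adult C57BL/6 mice, from which CD31+ endothelial cells were sorted by flow cytometry and run on the 10x Genomics droplet system with 3′ chemistry. One library was labelled control and 1 was labelled NF2 KO, a knockout of Nf2, the gene of merlin, which acts upstream of the Hippo kinases and the coactivators YAP and TAZ. The driver of the knockout, the exons removed, the tumour type and the number of mice are not given in the sources used here. No test between the conditions was possible with 1 library of each. The intervals in brackets are 95% intervals of counting error, which do not cover the spread between animals. Those of levels and their ratios, from UMIs summed over cells, do not cover the spread between cells either.

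Postcapillary venules are the segments in which leukocytes leave the blood. Their endothelium stores P-selectin in granules, makes E-selectin and other adhesion molecules when cytokines reach it, and opens its junctions in response to histamine. The receptor ACKR1 binds chemokines there without classical G protein signalling and displays them on the luminal side. In tumours these vessels lie downstream of a network that is led by tip cells, the migrating endothelial cells at the front of new sprouts.

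Each library held 2 runs by the prefix of its cell barcodes, and the labels do not say what a run is. Runs are shown apart as parts of a library, never as replicates. Run 1 of the control stood apart in depth: its deposited cells had a median of 2746 UMIs (molecules counted by unique identifiers) against 14337 to 19409 in the other runs, and 36.8% of them reached 2000 genes against 82.0% to 86.4%. Nf2 was detected at 19.97 UMIs per 1000000 UMIs (CPM) in control and 23.4 CPM in knockout venular cells, which does not check the labels, since 3′ tags can lie outside the part removed. The libraries shared 1 barcode, and no barcode of a venular cell was found in another run.

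By a line common to both libraries, venular cells were a larger share of the knockout library. They made up 29 of 1404 ranked control cells (2.07%, 1.39 to 2.95, exact Clopper-Pearson) and 140 of 2820 ranked knockout cells (4.96%, 4.19 to 5.83). By run the shares were 1.20% and 3.05% in the control and 3.92% and 5.68% in the knockout. Both knockout runs lay above both control runs, and run 2 lay above run 1 in each library. The ratio of the shares was 2.40 (1.60 to 3.72). Without control run 2 it was 4.13 (2.11 to 9.21), from 9 control cells, and without control run 1, the shallow one, 1.63 (1.02 to 2.75). Without knockout run 2 it was 1.90 (1.16 to 3.14). A sort and a minimum of genes stand before these shares, so they are shares of sequenced cells and not of vessels. Venular cells were shallower than the other ranked cells, with medians of 14558 against 19205 UMIs in the control and 13192.5 against 18080 in the knockout. A score from cells thinned to 4000 UMIs chose 28 control and 141 knockout cells. The score also differed below the line: 1030 of the 1404 control and 1537 of the 2820 knockout cells scored 0. Outside the venular cells, each of the 6 transcripts was found in a larger share of knockout cells. Selp was found there in 18.3% of control and 35.6% of knockout cells, and Sele in 1.16% and 4.22%. The part of this shift in the ratio of shares was not tested.

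**Figure D1:**
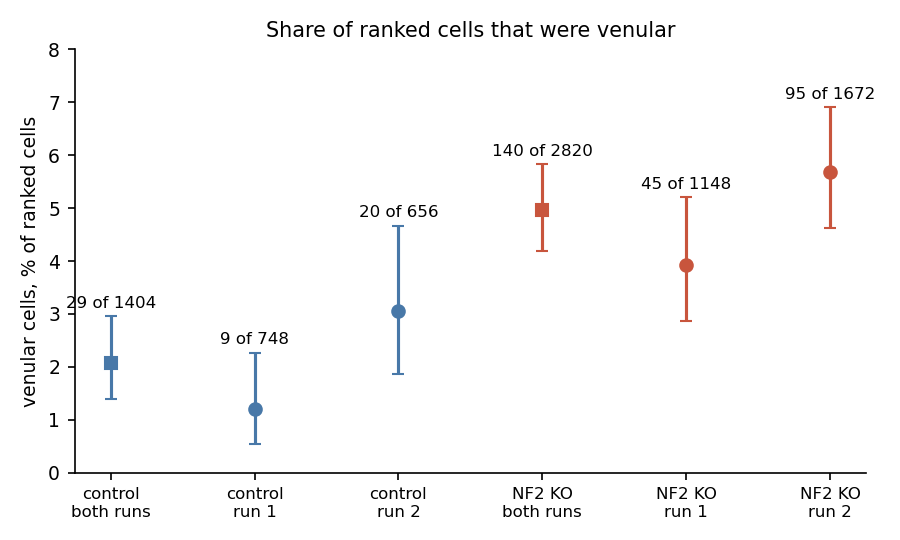
Share of ranked cells that were venular (vertical axis, percent) in each run of the control and the knockout library, with 95% Clopper-Pearson intervals as bars. Both knockout runs, at 3.92% and 5.68%, lie above both control runs, at 1.20% and 3.05%.

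The 6 transcripts that chose the cells were unevenly shared among them. The score ran from 2.40 down to 0.892 in the last cell inside and 0.891 in the first cell outside, and 60.8% of the ranked cells scored 0. The last cell inside had log values of 2.18 for Selp and Fbln2 and 0.501 for Ackr1 and Sele. The first cell outside had 2.78 for Selp, 1.59 for Ackr1 and none for Sele or Fbln2. Both cells came from the knockout library, and the line fell within a continuous range. Of the 169 cells, 151 held UMIs of both Ackr1 and Selp, 3 held all 6 transcripts, 49 held 5, 77 held 4, 37 held 3 and 3 held 2.

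Ackr1 (chromosome 1, 173331886 to 173333750, minus strand of GRCm38) stood at 527 and 457 CPM in the runs of control venular cells and at 1314 and 863 CPM in those of the knockout. The knockout runs lay above the control runs, and the other ranked cells held 2.87 and 12.7 CPM. Selp, the gene of P-selectin (chromosome 1, 164115264 to 164150026), was at 1581 and 1233 CPM in control run 1 and run 2 and at 1791 and 1680.2 CPM in knockout run 1 and run 2, against 32.2 and 95.1 CPM elsewhere. Sele, the gene of E-selectin (chromosome 1, 164048234 to 164057677), was at 160.4 and 184 CPM and at 235 and 239.9 CPM in the same order. Since these transcripts chose the cells, their levels by library are given as a description only.

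Fbln2, which encodes the matrix glycoprotein fibulin 2 (chromosome 6, 91212455 to 91272540), went the other way, with 1066 and 812 CPM in control runs and 686 and 472 CPM in knockout runs. Lbp, for the lipopolysaccharide-binding protein (chromosome 2, 158306493 to 158332852), was at 332 and 171 CPM in control runs and 77.8 and 96.5 CPM in knockout runs. With the top 4% of each library taken apart, the log2 ratio of knockout over control was 0.18 for Fbln2 and 0.30 for Lbp, the other direction. Igfbp5, for a binding protein of insulin-like growth factors (chromosome 1, 72857932 to 72874884, minus strand), was found in 3 control and 20 knockout venular cells, and 1 cell held 87.0% of its control UMIs. Its runs, 11.5 and 272 CPM against 434 and 325 CPM, therefore say little about the control. UMIs of Ackr1 were found in 89.7% of control and 90.0% of knockout venular cells, against 2.55% and 5.93% of the other ranked cells. With cells thinned to 4000 UMIs, which left out 1 shallower cell of the other knockout cells, the shares were 69.0% and 77.9% against 0.945% and 2.61%.

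**Figure D2:**
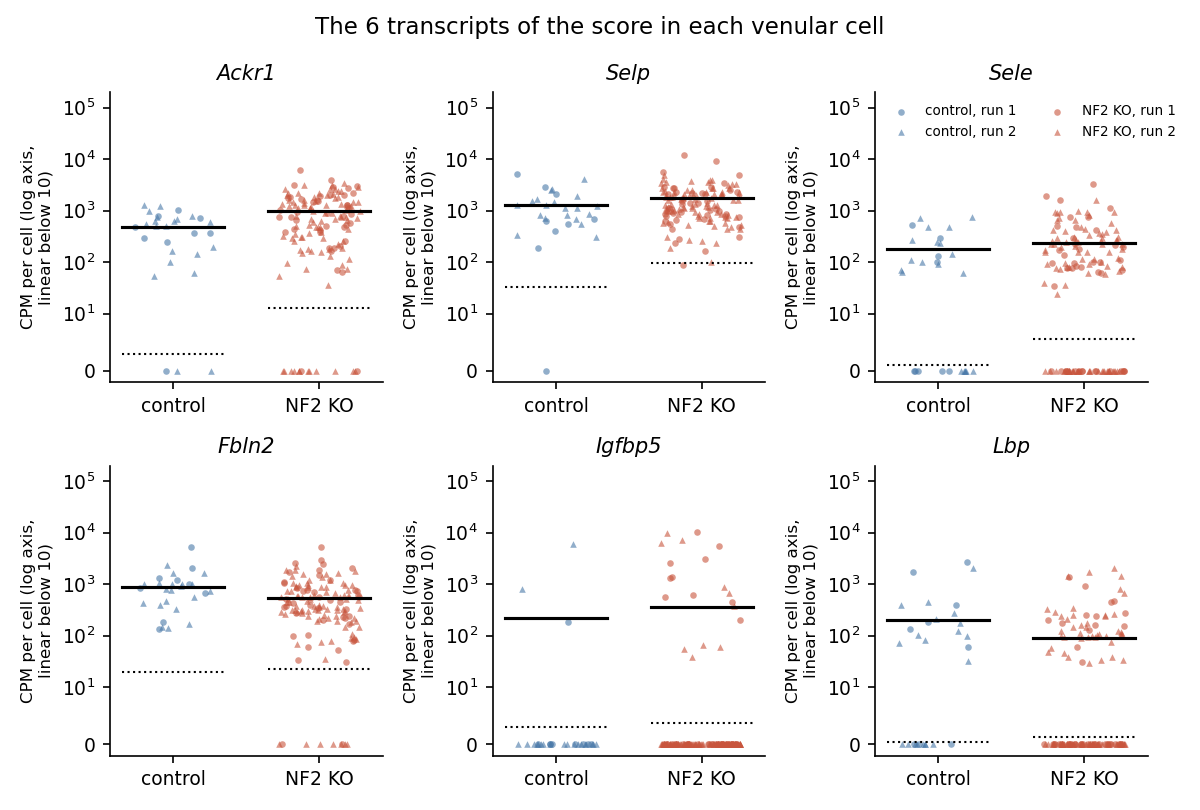
Each point is the level of 1 transcript of the score in 1 venular cell (CPM, log axis, linear below 10), by library, with circles for run 1 and triangles for run 2. Solid lines are the CPM of summed UMIs in venular cells and dotted lines that of the other ranked cells; most cells hold no Igfbp5, which 3 control and 20 knockout cells carry.

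The label was checked against markers of other cell types. Endothelial markers summed to 8479 CPM in control and 7947 CPM in knockout venular cells, with UMIs of every one of the 15 markers in both. Markers of T, NK or B cells summed to 4.44 and 3.16 CPM, epithelial or tumour markers to 2.22 and 2.25 CPM, with Epcam, Cldn4 and Cdh1 at 0, and erythroid markers to 8.88 and 0.902 CPM. Macrophage markers reached 26.6 and 45.1 CPM, with Adgre1 at 0, platelet markers 28.8 and 43.3 CPM, with Ppbp at 0, and neutrophil markers 142 and 156 CPM, with Ly6g at 0, against 62.7 and 66.3 CPM in the other ranked cells. Of the neutrophil markers S100a9 was higher in venular cells of both libraries and S100a8 in those of the knockout, but 1 cell held 83.7% of the control and 71.4% of the knockout UMIs of S100a9 and 64.5% of the knockout UMIs of S100a8. The neutrophil sum was 562 and 41.3 CPM in the control runs and 37.4 and 205 CPM in the knockout runs. Fibroblast markers reached 31.1 and 70.8 CPM, with Pdgfra at 0, against 19.5 and 14.2 CPM in the other ranked cells. Pericyte or smooth muscle markers reached 39.9 and 153 CPM, with Cspg4 at 0, against 177 and 58.9 CPM. Of these lists Dcn was 14.6-fold and Tagln 5.09-fold higher in knockout venular cells, and 1 cell held 94.9% of the Dcn UMIs. Their part in the results was not tested. Markers of 1 other cell type took over 0.5% of the UMIs in 4 venular cells.

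A subset of the control cells carried a lymphatic marker. Prox1, a transcription factor of lymphatic endothelium and of valves (chromosome 1, 190118035 to 190170714, minus strand), was detected in 8 of 29 control venular cells, 2 of them in run 1 and 6 in run 2. It was detected in 3 of 140 knockout venular cells, in 0 of 1375 other control cells, which by 3 counts allows up to 0.218% of cells with a UMI, and in 9 of 2680 other knockout cells. The lymphatic markers Pdpn, Mmrn1, Ccl21a and Reln were at 0 in venular cells of both libraries, and Lyve1 and Flt4 were lower there than in the other ranked cells. Lymphatic markers summed to 104 CPM in control and 25.2 CPM in knockout venular cells, against 102 and 79.9 CPM in the other ranked cells. The 8 control cells with Prox1 gave 28.04% of the UMIs of the control venular cells. The contrasts with the knockout were therefore also computed without the cells with Prox1, an alternative chosen after the data were seen. Its results are given below for some contrasts only. Values below for which it is not stated, also those of venular against other control cells, include the cells with Prox1.

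A gene with a mean of both levels of at least 20 CPM was counted as higher or lower when the levels differed by 1.5-fold or more and the counting interval of their ratio did not include 1, which is called the size rule. Against the other ranked cells, 375 of 5606 genes (6.69%) were higher in the venular cells of both libraries and 268 (4.78%) were lower in both. In the control alone 13.2% of genes were higher and 9.58% lower, and in the knockout 10.4% and 7.99%. The lists of genes described next, some of which share members (Lrg1 and Il6st are venous and interleukin 6 genes, Icam1 and Vcam1 adhesion and NF-kappaB genes), were read against these shares, and their medians against a median log2 ratio over all tested genes of 0.07 in the control and -0.01 in the knockout.

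Venous identity went with the venular score. Of 15 tested genes of a list of venous identity, 12 were higher in the control and the same 12 in the knockout library, with median log2 ratios of 1.77 and 1.52. Nr2f2, the transcription factor that sets venous fate, was 6.61-fold higher (5.47 to 7.91) in control and 4.38-fold higher (3.92 to 4.87) in knockout venular cells. Ephb4, the receptor through which veins meet arterial ephrin B2, was 3.45-fold and 2.74-fold higher. The apelin receptor gene Aplnr was 3.39-fold and 3.37-fold higher, and Vwf, the gene of von Willebrand factor, 3.46-fold and 3.59-fold. Lrg1, a secreted glycoprotein of inflamed venules, was 9.11-fold and 6.55-fold higher, and the prostaglandin transporter gene Slco2a1 22.98-fold and 13.1-fold. Emcn, which capillaries and veins share, differed by less than the size required in either library. Cpe was 1.73-fold lower in knockout venular cells, the exception of the list. Lists of other segments were mixed. Of a capillary list, 4 of 11 tested genes were higher and 4 lower in control venular cells. In those of the knockout 4 of 9 were higher (Car4, Cd36, Fabp4 and Aqp1) and 2 lower. Of an arterial list, 2 of 10 were higher and 5 lower in the control, and 2 of 5 were higher and 2 lower in the knockout.

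Some adhesion genes outside the score were higher. Icam1, the ligand of leukocyte integrins, stood at 791 and 636 CPM in the control runs and 668 and 599 CPM in the knockout runs of venular cells, against 70.4 and 132 CPM in the other ranked cells. The runs of the libraries overlapped. Vcam1 was 2.83-fold and 1.58-fold higher, the latter counted under 11 of 22 alternatives, Jam2, a junctional adhesion molecule, 3.70-fold and 3.598-fold, and Cx3cl1, a chemokine held on the membrane, 5.87-fold and 5.25-fold. These were 4 of the 12 and 4 of the 11 genes tested in a list of leukocyte capture and passage. Icam2, another integrin ligand, went the other way and was 1.82-fold lower in control venular cells. The pan-endothelial members of that list, Pecam1, Esam, F11r and Podxl, were counted in neither direction in either library.

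Targets of NF-kappaB and of the interleukin 6 family, the cytokine routes to such adhesion molecules, were described next. Of 18 NF-kappaB targets, 11 were higher and 1 lower in control venular cells, and 9 were higher and 1 lower in those of the knockout, with medians of 0.92 and 0.59. Nfkbia, the inhibitor that NF-kappaB itself induces, was 1.63-fold and 1.78-fold higher, and Nfkbiz 2.17-fold and 2.41-fold. Ccl2, the monocyte chemokine, was the one that was lower, by 2.12-fold and 3.17-fold. Il6 stood at 68.8 and 74.3 CPM in the control runs and 165 and 168 CPM in the knockout runs, against 19.99 and 23.9 CPM in other cells. In the receptors of that family and the genes that STAT3 induces, 11 of 13 tested genes were higher in the control and 12 of 13 in the knockout, with medians of 1.44 and 1.04. Il6st, the shared receptor subunit gp130, was 6.95-fold and 5.604-fold higher, Lifr 6.97-fold and 6.82-fold, Osmr 4.10-fold and 3.89-fold, and Socs3, the feedback inhibitor, 3.50-fold and 2.28-fold.

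The 250 bases before the start of the genes were read from RefSeq (GRCm38.p6) for 3 short motifs on both strands. This is a description of letters and not of binding. A gene was counted if any of its promoters held a motif, while shares of all promoters count each promoter singly, so the measures differ. A STAT-like motif, TTCNNNGAA, was in 7.02% of 32851 promoters and in 2 of 14 matched genes of the interleukin 6 list, Fgl2 and Socs3. It was also in Sele, 1 of 5 matched genes of the score. An NF-kappaB-like motif (GGG, any 2 letters, TT, any letter, CC) was in 4.11% of promoters and in 6 of 13 matched NF-kappaB targets (Cxcl1, Cxcl2, Il6, Nfkb2, Nfkbia and Tnfaip3). The windows of Sele (chr1:164047984-164048233, plus strand) and Socs3 (chr11:117969367-117969616, minus strand) are shown because both transcripts were high in venular cells, with the STAT-like match in capitals.
Sele: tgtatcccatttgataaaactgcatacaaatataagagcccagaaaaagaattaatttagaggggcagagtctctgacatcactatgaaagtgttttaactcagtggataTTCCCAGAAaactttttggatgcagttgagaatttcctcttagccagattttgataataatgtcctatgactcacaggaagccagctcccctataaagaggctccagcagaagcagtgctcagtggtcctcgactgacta
Socs3: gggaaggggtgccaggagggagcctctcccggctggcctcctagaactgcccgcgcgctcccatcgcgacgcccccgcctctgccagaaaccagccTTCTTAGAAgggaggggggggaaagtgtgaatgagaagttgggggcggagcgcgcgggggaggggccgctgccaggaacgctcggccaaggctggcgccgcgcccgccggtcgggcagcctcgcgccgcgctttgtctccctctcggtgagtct
The match ended 132 bases before the start of Sele and 146 bases before that of Socs3.

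Genes with the highest ratios outside the score included enzymes of local mediators. Hdc, which makes histamine, stood at 378 and 135 CPM in control runs and 107 and 151 CPM in knockout runs of venular cells, against 11.9 and 6.87 CPM in other cells. Ptgs1, the constitutive cyclooxygenase, was 34.0-fold and 12.9-fold higher. Regulators of complement were higher too: Cd55 by 32.4-fold and 13.2-fold, Cd59a by 5.15-fold and 5.54-fold, and Serping1, the C1 inhibitor gene, by 3.07-fold and 3.70-fold. With C1qtnf9, which was lower, these were the 4 genes of the complement list that could be tested. Without the cells with Prox1, 2 of the 4 were higher and 1 lower in the control.

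Matrix genes were mixed. Of a list of them, 7 of 18 were higher and 7 lower in control venular cells, and 9 of 20 were higher and 5 lower in those of the knockout, with medians of -0.34 and -0.13. Several of the genes with the highest ratios encode matrix proteins, in cells whose summed fibroblast markers were 198 CPM in knockout run 1 and 19.0 CPM in run 2. The part of those markers in these levels was not tested. Eln, the gene of elastin, was at 218 and 38.5 CPM in control and 123 and 166 CPM in knockout runs, against 0.383 and 1.76 CPM in other cells. Bgn, a small proteoglycan, was 29.2-fold and 5.72-fold higher, and Mgp, the matrix Gla protein, 79.0-fold and 68.1-fold, from 4 control and 11 knockout cells. Fn1, the gene of fibronectin, was lower by 19.7-fold and 26.7-fold. The laminin genes Lama4 and Lamb1 were lower in both libraries, by 5.44-fold and 4.87-fold and by 3.88-fold and 2.17-fold, as was Sparcl1, and Sparc, Hspg2 and Nid1 were lower in the control. Other genes among the 15 highest were Cmah, Ctnnal1, Gpr182, Itgb4, Samd5, Adamts5, Fjx1, Serpinb9b and Glycam1. A single cell held 92.9% of the knockout and 72.7% of the control UMIs of Glycam1, a ligand of L-selectin in high endothelial venules, and 52.6% of the control UMIs of Serpinb9b.

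Among binding proteins of insulin-like growth factors, Igfbp4 was 2.82-fold and 2.54-fold higher, while Igfbp3 stood at 264 and 350.3 CPM in venular cells against 6204 and 2099 CPM elsewhere. Of the genes of a flow response list, 5 of 8 were higher and 2 lower in the control, and 5 of 9 were higher and 1 lower in the knockout. Klf2, which laminar flow induces, was 2.29-fold and 1.72-fold higher, Klf4 3.13-fold and 2.41-fold, Thbd, the gene of thrombomodulin, 2.22-fold and 2.68-fold, and Nos3 1.58-fold and 1.66-fold. Cav1, the gene of caveolin 1, was lower in both, and Timp3, an inhibitor of metalloproteinases, was 3.73-fold lower in the control.

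The tip cell program was low. Of 16 tip genes, 15 were lower and 1, Ednrb, was higher in control venular cells, and 12 were lower in those of the knockout, with medians of -2.64 and -2.63. Esm1, a proteoglycan of sprouting endothelium, had 4.44 CPM in control and 33.4 CPM in the knockout venular cells against 854 and 1423 CPM in other cells. Pgf, the placental growth factor, stood at 11.1 and 9.02 CPM against 588 and 674 CPM. Cxcr4 had 0 UMIs in the control venular cells and was at least 29.3-fold lower there against a limit of 3 counts, and it was 24.8-fold lower (14.2 to 48.1) in the knockout. Chga and Gal, which encode secretory peptides, likewise had no UMI in control venular cells and were at least 42.4-fold and 36.6-fold lower.

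Genes of hypoxia and glycolysis were lower in 8 of 11 cases in the control and 7 of 11 in the knockout, while 1 and 2 were higher. Slc2a1, the glucose transporter, stood at 82.1 and 85.2 CPM in venular cells against 185 and 141 CPM. Of 12 tested genes of the S and G2/M phases 4 were lower in the control and 3 in the knockout, and none was higher. With the top 8% of cells 1 of 13 and 0 of 14 were lower, with medians of 0.06 and 0.30. Cldn5, the main claudin of tight junctions, was 7.65-fold lower (5.98 to 9.96) and 2.001-fold lower (1.79 to 2.24). Its runs were 424 and 71.6 CPM in control and 142 CPM in each knockout run.

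**Figure D3:**
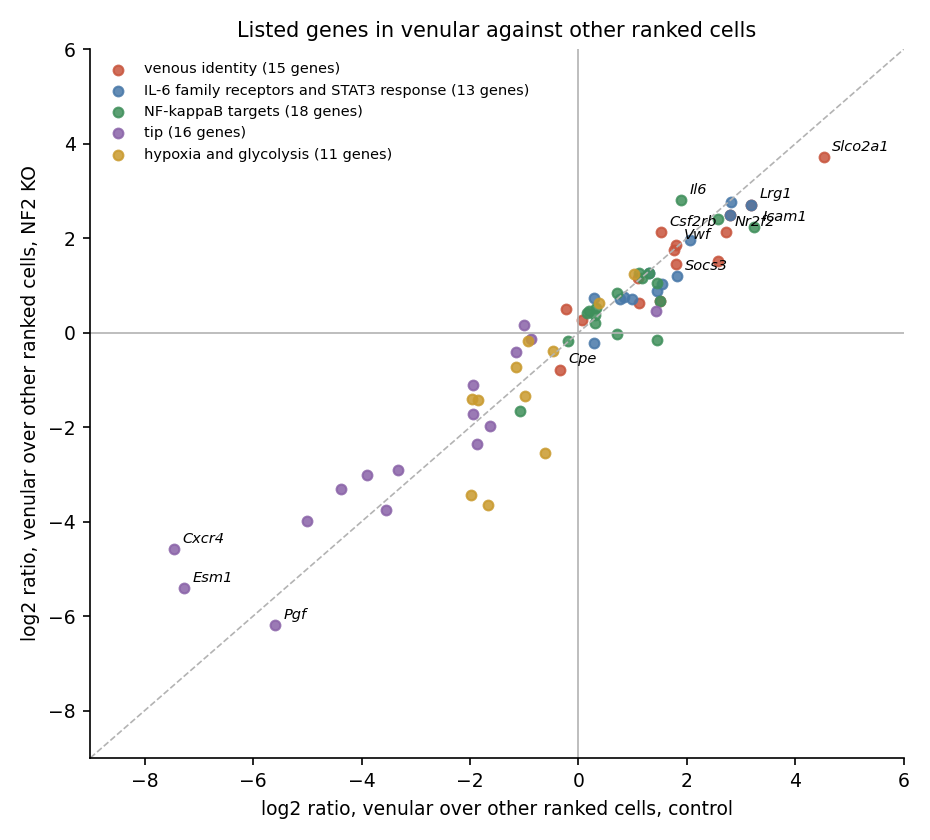
Level in venular over other ranked cells (log2 ratio of CPM) of the tested genes of 5 lists, in the control library (horizontal axis) and the knockout library (vertical axis). The dashed line marks equal ratios. Most venous, interleukin 6 family and NF-kappaB genes lie above 0 in both libraries and most tip genes below 0, with Esm1, Cxcr4 and Pgf among the lowest; Cxcr4 had no UMI in control venular cells, so its place on that axis rests on the prior of 0.5 counts.

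Transcripts outside the score also followed it below the line. The ranked cells were divided by score into the top 4%, 4 to 8%, 8 to 20%, the rest above 0 and those at 0, since cells tied at 0 cannot be ordered, a division chosen after the data were seen. Over these bands Lrg1 ran from 1957 through 1196, 710.2 and 292 to 126 CPM in control cells and from 2673 through 1440.5, 816 and 440.1 to 188 CPM in those of the knockout. Nr2f2 went from 288 through 123, 101 and 45.7 to 35.9 CPM in control cells and from 179.9 through 106, 68.0 and 41.5 to 27.8 CPM in those of the knockout. Spearman's rho with the score was taken over the 4224 ranked cells of both libraries together, without adjustment for library or depth. The transcripts most like the score were Lrg1 (0.60), the water channel Aqp1 (0.53), the TGF-beta coreceptor Eng (0.51), Slco2a1 (0.51), Dnm3 (0.49), Csrp2 (0.49), Ndufa4 (0.45), Plvap, the protein of fenestral diaphragms (0.45), Icam1 (0.44) and Jam2 (0.44).

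**Figure D4:**
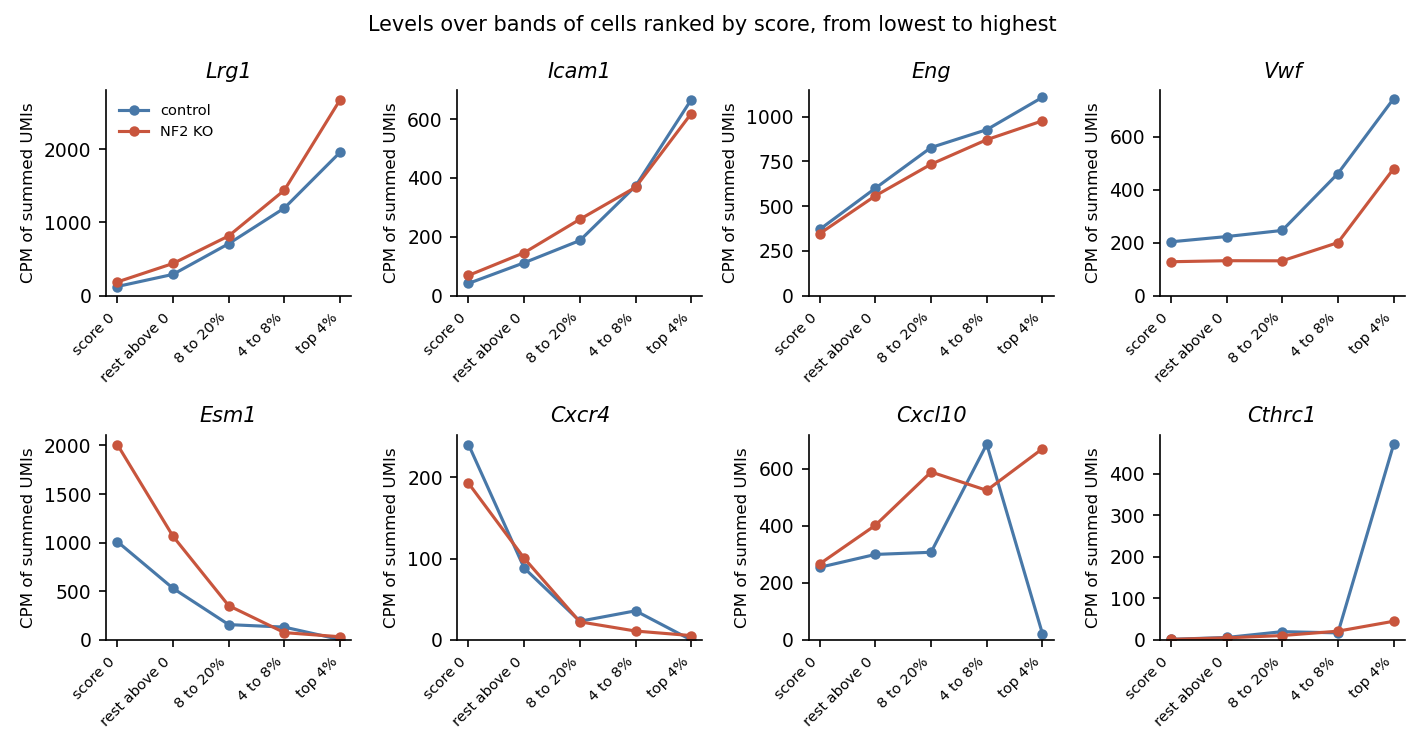
Levels (CPM of summed UMIs, vertical axes) of 8 transcripts in 5 bands of the ranked cells, from those with a score of 0 to the top 4%, with a line for each library. Lrg1, Icam1, Eng and Vwf are highest in the top band, Esm1 and Cxcr4 are low there, and Cxcl10 of the control is 685 CPM in the 4 to 8% band and 22.2 CPM in the top band.

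Between the libraries, within the venular cells, 250 of 6028 genes (4.15%) were higher in the knockout and 474 (7.86%) were lower. Both knockout runs lay on the same side of both control runs in 207 of the 250 and 404 of the 474. These are 3.43% and 6.7% of the 6028 genes. In the other ranked cells 2.89% of tested genes were higher and 5.22% lower, with no condition on the runs. The control side of these ratios rests on 29 cells and 450621 UMIs.

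Interferon-induced genes were higher in knockout venular cells: of a list of such genes, 9 of 17 tested were higher and none lower, with a median log2 ratio of 0.73 against -0.10 over all tested genes. In the other ranked cells 0 of 19 were higher or lower. Cxcl10, a chemokine that draws T cells (chromosome 5, 92346638 to 92348889, minus strand), stood at 0 and 27.5 CPM in the control runs and at 985 and 541 CPM in the knockout runs, a ratio of 30.2 (16.4 to 63.05). It stands outside that list, among the chemokines, and was found in 4 control and 44 knockout venular cells. Rsad2, which encodes viperin, was at 0 and 5.504 CPM against 139 and 20.9 CPM. Isg15, a ubiquitin-like modifier, was at 34.4 and 102 CPM against 429.6 and 262 CPM, and Igtp, an interferon-induced GTPase outside the list, at 11.5 and 30.3 CPM against 146 and 148 CPM. The runs of the libraries did not overlap for these 4 genes. Cxcl10, Rsad2 and Igtp were named by a rule that required this, so for them it adds no support.

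The 29 control cells were low in these genes against their own library. Of 18 tested genes of the list, 6 were lower in control venular cells and none higher, while in the knockout 2 of 19 were higher, Ifit1 and Iigp1, and 1 was lower, Rsad2. The next band of control cells by score, from 4 to 8%, held 685 CPM of Cxcl10, 49.8 CPM of Rsad2, 243 CPM of Isg15 and 179 CPM of Igtp. With the top 8% of ranked cells in place of 4%, 3 of 18 interferon genes were higher and 1 lower, with a median of 0.06. With the top 4% of each library taken apart, 0 of 16 were higher or lower, with a median of 0.08. These settings hold 59 and 56 control cells in place of 29, and the list's difference was not seen with them. It was also reduced with other choices of cells: with the top 2%, which holds 17 control cells, 3 of 15 were higher and 1 lower, with a median of 0.23, and without Sele in the score 1 of 16 was higher, with a median of 0.22. Without the cells with Prox1, 7 of 17 were higher, with a median of 0.56.

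Of the 12 genes with the highest ratios, 8 were matched to RefSeq. An interferon response-like motif (TTTC, any 2 letters, TTTC) lay before the start of 5 of these 8. Of all promoters, each counted singly, 2.98% held it. The 12 were Cxcl10, Rsad2, Ch25h, Serpinb1a, Igtp, F830016B08Rik, Cst6, Ifit3, Fam198b, Cadm3, Rnf19b and Irgm2. In the interferon list, 8 of 14 matched genes held it. The 5 windows are printed with the match, on either strand, in capitals, because these genes lead the difference just described. They lie at chr5:92348890-92349139 (Cxcl10, minus strand), chr12:26456453-26456702 (Rsad2, minus), chr19:34583279-34583528 (Ifit3, plus), chr11:58199306-58199555 (Igtp, plus) and chr11:58214727-58214976 (Irgm2, plus).
Cxcl10: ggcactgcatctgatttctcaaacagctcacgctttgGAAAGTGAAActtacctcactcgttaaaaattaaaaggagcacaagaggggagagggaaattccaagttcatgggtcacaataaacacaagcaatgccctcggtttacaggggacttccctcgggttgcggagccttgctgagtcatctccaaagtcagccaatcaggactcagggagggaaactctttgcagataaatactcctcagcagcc
Rsad2: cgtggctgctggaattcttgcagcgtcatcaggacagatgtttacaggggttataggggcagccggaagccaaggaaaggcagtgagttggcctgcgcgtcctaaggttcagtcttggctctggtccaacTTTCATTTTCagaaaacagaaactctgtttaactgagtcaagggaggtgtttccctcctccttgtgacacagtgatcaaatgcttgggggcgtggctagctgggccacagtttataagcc
Ifit3: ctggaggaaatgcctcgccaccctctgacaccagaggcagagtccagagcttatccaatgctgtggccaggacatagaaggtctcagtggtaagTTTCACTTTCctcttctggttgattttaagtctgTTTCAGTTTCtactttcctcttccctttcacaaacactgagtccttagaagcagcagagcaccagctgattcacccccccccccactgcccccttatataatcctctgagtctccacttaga
Igtp: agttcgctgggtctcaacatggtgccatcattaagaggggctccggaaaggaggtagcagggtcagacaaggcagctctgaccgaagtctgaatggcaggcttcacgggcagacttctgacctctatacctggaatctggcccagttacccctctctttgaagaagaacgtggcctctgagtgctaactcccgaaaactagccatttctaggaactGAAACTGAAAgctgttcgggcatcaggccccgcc
Irgm2: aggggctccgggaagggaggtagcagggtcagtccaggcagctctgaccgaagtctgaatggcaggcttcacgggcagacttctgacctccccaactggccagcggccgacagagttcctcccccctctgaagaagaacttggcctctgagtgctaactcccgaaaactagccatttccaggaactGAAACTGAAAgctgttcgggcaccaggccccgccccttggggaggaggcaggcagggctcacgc
Ifit3 held 2 matches. Igtp and Irgm2, which are neighbours of 1 gene family on chromosome 11, carry the same letters, GAAACTGAAA. Counts of such related genes are uncertain where the authors' counting could split reads between copies. The NF-kappaB-like motif was also found before Cxcl10, at 103 to 94 bases from its start.

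Several of the lowest ratios depended on the control cells that held Prox1. Among the 12 lowest genes were Prox1, Fst, Cthrc1, Fxyd6, Fgl2, Nmb, Cd24a, Net1, Ttyh3, Mbd4 and Cp. Cthrc1, a secreted collagen triple helix protein, stood at 699 and 416 CPM in control and 65.4 and 36.8 CPM in the knockout runs, 10.4-fold lower (8.19 to 13.4). Fst, the gene of follistatin, which binds activins, was at 57.3 and 204 CPM against 9.34 and 18.4 CPM. In the 8 control cells with Prox1, Cthrc1 reached 1496 CPM, Fst 609 CPM and Lbp 538 CPM. Without the cells with Prox1, Cthrc1 was 1.81-fold lower (1.09 to 2.90), Net1 was 4.38-fold lower, and Fst, Fxyd6, Cd24a, Cp and Lbp turned to the other direction, with log2 ratios of 0.66, 0.53, 1.65, 0.91 and 0.31. Fgl2, Nmb, Ttyh3 and Mbd4 no longer met the size rule, with Ttyh3 at 4.64-fold (1.75 to 11.7) and Mbd4 at 3.54-fold (1.39 to 8.41) lower but under the minimum level. Of the 474 genes lower with all cells, 249 (52.5%) were still lower then, and of the 250 higher, 162 (64.8%) were still higher.

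MHC class II transcripts were lower in the knockout in every tested case. All 4 tested genes were lower in venular cells, with a median of -1.67, and 5 of 5 in the other ranked cells, with a median of -1.62. H2-Ab1 stood at 91.7 and 140.4 CPM in control and 18.7 and 35.5 CPM in knockout runs, and Cd74, the invariant chain, at 493 and 322 CPM against 148 and 152 CPM. The runs did not overlap for either gene. The 4 genes were each lower with the top 8% of cells, with each library taken apart and without the cells with Prox1. In control venular cells, 1 cell held 41.25% of the Cd74 UMIs, which were found in 9 control and 33 knockout cells. Without that cell and the top knockout cell the log2 ratio of Cd74 was -0.93. Macrophage markers were at 26.6 CPM in control and 45.1 CPM in knockout venular cells, and their part in this result was not tested.

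Targets of YAP and TAZ, the coactivators that merlin restrains, were looked at in the same way. None of 9 tested targets was higher in the knockout and 1, Amotl1, was lower, with a median of 0.36, which was -0.04 with the top 8% of cells and -0.06 with the top 4% of each library taken apart. In the other ranked cells 8 of 13 were higher and 2 lower, with a median of 0.80. Cyr61, a matricellular protein, was at 905 and 661 CPM in control and 593 and 574 CPM in knockout runs of venular cells, against 432 and 837 CPM in the other cells of the libraries. Ctgf was 1.29-fold higher (1.07 to 1.55) in venular and 1.75-fold higher (1.71 to 1.79) in other cells. Ankrd1 was found in 1 control and 1 knockout venular cell, at 2.22 and 0.451 CPM. These levels lie under those of 3 counts, 6.66 and 1.35 CPM, so they say little about the libraries. In the other cells Ankrd1 stood at 13.1 and 89.8 CPM. The difference between venular and other cells was not tested.

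Venous genes were in part lower in knockout venular cells. Of the 15 tested, Nr2f2, Ephb4, Aplnr, Vwf and Cpe were lower and Csf2rb was higher. Nr2f2 stood at 389.6 and 264 CPM against 204 and 170.1 CPM, with no overlap of the runs. With the top 4% of each library taken apart, 2 genes of the list were lower and 4 higher, so this count depended on the cells taken. None of the 12 genes of leukocyte capture was counted, and of the 18 NF-kappaB targets Il6 was the one counted, 2.28-fold higher (1.59 to 3.36). Csf3, the granulocyte growth factor, had no UMI in the 29 control cells and was at least 5.96-fold higher in the knockout, from 20 cells. It lay under the minimum level of the size rule and was not counted.

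Capillary and lipid transcripts were mixed. Fabp4, a fatty acid binding protein of endothelium (chromosome 3, 10204088 to 10208576, minus strand), stood at 1971 and 952 CPM in control and 1883 and 6104 CPM in knockout runs, 4.25-fold higher (3.89 to 4.65). Its runs overlapped, since knockout run 1 lay below control run 1. Car4, a carbonic anhydrase of capillaries, was at 34.4 and 154 CPM against 416 and 361 CPM, and Cd36, a fatty acid transporter, at 367 and 201 CPM against 289 and 683 CPM. Of 10 capillary genes 4 were higher and 2 lower.

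There were 22 alternatives (those that change the cells, the depth, the scaling or the runs). Under all of them, 17 genes were called higher and 24 lower in knockout venular cells, of 6028 tested with the main settings. The alternatives reuse many of the same cells and are not independent. Ackr1, 1 of the 17, is a transcript of the score and helped choose the cells. The genes given here from the 17 and the 24, beyond those named above, were chosen after their values were seen. Serpinb1a, an inhibitor of neutrophil proteases, was at 103 and 38.5 CPM in control and 356 and 305 CPM in knockout runs. Crip1, a LIM domain protein, was at 321 and 440.3 CPM against 1002 and 1375 CPM, and Ace, the angiotensin-converting enzyme, at 22.9 and 41.3 CPM against 112 and 173 CPM. On the lower side, Sparcl1, a matricellular protein, was at 710.5 and 294 CPM against 79.4 and 119 CPM, and Sox4, a transcription factor, at 653 and 294 CPM against 146 and 99.7 CPM. Dusp2, a phosphatase of MAP kinases, stood at 367 and 592 CPM against 185 and 193 CPM. The runs of the libraries did not overlap in these 6 genes. The alternatives left out each run in turn, so the choice of genes favoured this and it adds no support.

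**Figure D5:**
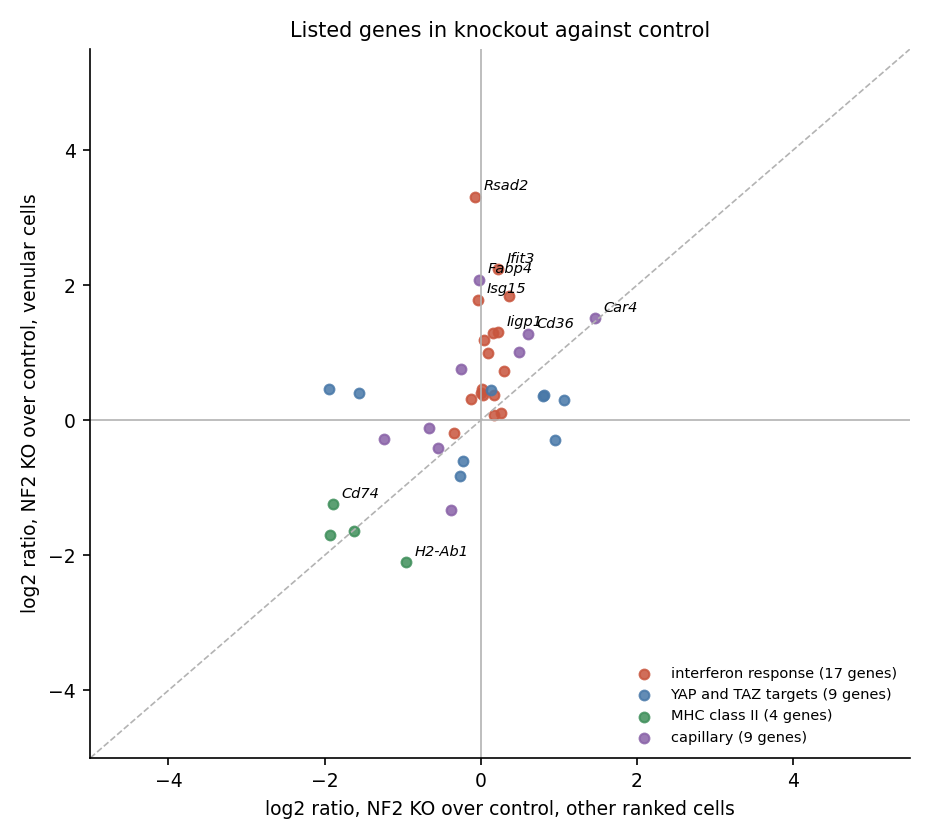
Knockout over control level (log2 ratio of CPM) of genes of 4 lists, in the other ranked cells (horizontal axis) and in venular cells (vertical axis); the dashed line marks equal ratios. Interferon genes such as Rsad2 lie above 0 in venular cells, with 9 of 17 tested counted as higher, and near 0 in the others. MHC class II genes lie below 0 in both. The difference of the interferon list was not seen with the top 8% of cells or with the top 4% of each library taken apart.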

How the data were processed

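Droplet 3′ RNA libraries of CD31+ endothelial cells sorted from tumours of adult mice were read as 1 table of cells for the control and 1 for NF2 KO. Per the submitters' processing notes, the tools were Cell Ranger 3.0.0 and Seurat 3.1.1 and the genome build was mm10. The deposited values are natural logs of 1 plus UMIs scaled to 10000 in each cell; the authors' scaling was undone to whole UMIs, and all values came out whole within 0.01 UMI. The files were expected to hold counts and held ln values, so sums of recovered UMIs were described and no count model was fitted.

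Cells with at least 2000 genes were ranked by the mean deposited value of the 6 transcripts, and the highest 4% were taken. UMIs were summed per group and given as CPM, with exact Poisson, exact conditional ratio and Clopper-Pearson intervals at 95%, which cover counting error only. Log2 ratios used a prior of 0.5 counts. A limit of 3 counts was used over a group at 0 (6.66 CPM in control and 1.35 CPM in knockout venular cells). Venular cells held 450621 UMIs in control and 2217954 in knockout. Named genes were the transcripts of the score, genes of the lists, the 15 highest and 12 lowest against other cells in both libraries, the 12 highest and 12 lowest between conditions with runs apart, and the 10 most like the score, leaving out mitochondrial, ribosomal and unnamed genes. Some genes that this rule or the text would name are not reported here. Members and lists were chosen with earlier results of these data known. Doublets were scored against simulated pairs, and the highest 5% were removed as an alternative; other alternatives changed the cells, filters, depth and scaling. Coordinates came from GENCODE M21 (GRCm38) and promoter sequences from RefSeq. Ratios were also computed on simulated counts with counting error only. Such counts cannot show how the intervals behave where levels differ between cells, runs or animals. Python 3.11.15, numpy 2.4.6, scipy 1.17.1, pandas 2.3.3, scikit-learn 1.9.0 and matplotlib 3.10.9 were used.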

Additional observations from a re-analysis of the deposited data

Results flagged for a closer look

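Some transcripts lay on opposite sides of the other ranked cells in the 2 libraries, and the difference between the libraries was not tested. Fabp4, the fatty acid binding protein, had a ratio of venular to other cells of 0.445 in the control and 1.91 in the knockout. Cxcl10 had 0.0808 and 1.85, and Serpinb1a, the protease inhibitor, 0.464 and 3.68. Rnf19b, a ubiquitin ligase, had 0.3832 and 1.615, and F830016B08Rik, an interferon-induced GTPase-like gene, 0.369 and 1.84. Edn1, the gene of endothelin 1, went the other way, with 2.015 in the control and 0.5396 in the knockout.

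Cells under 2000 genes were not ranked, yet some held the score of a venular cell. They were 10 of 1422 such control cells (0.703%, 0.338 to 1.29, Clopper-Pearson) and 13 of 548 such knockout cells (2.37%, 1.27 to 4.02).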

How the results depend on the processing

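No paired analysis was possible because each condition was 1 library and the runs carry no label that pairs them. The ratio of shares was 1.005 (0.723 to 1.41) when the top 4% of each library was taken apart, which sets the shares equal by construction, and 1.628 to 4.126 when 1 run was left out, 4.126 being without control run 2. Genes higher in venular cells of both libraries numbered 695 with no minimum level, 223 with a minimum of 50 CPM and 281 to 380 with 1 run left out; genes lower in both numbered 410, 167 and 155 to 271, with 155 without control run 2, and 178 with counts thinned. Between the libraries, venular cells had 542 genes higher and 907 lower with the mean of CPM per cell, which has no interval, 151 and 228 with the 50 CPM minimum, 161 higher with counts thinned, and 251 to 282 higher and 387 to 530 lower with 1 run left out. The other ranked cells had 1285 higher and 1001 lower with no minimum, 82 and 171 with 50 CPM, and 160 to 174 and 255 to 392 with 1 run left out. Log2 ratios of knockout over control changed sign for F830016B08Rik (-0.168 with the top 8%, -0.02206 with each library apart, -0.1406 without Selp and -0.03996 without Sele in the score), Iigp1 (-0.1342 with the top 8%), and Lbp (0.3027) and Fbln2 (0.1792) with each library apart. Without the cells with Prox1 they changed sign for Fst (0.6628), Fxyd6 (0.5299), Cd24a (1.649), Cp (0.9122) and Lbp (0.3133). The causes were not tested. Over all alternatives, 153 counts and shares stayed within 1.5 times or the interval of the reported value and 17 moved beyond it, while for single genes 2448 log2 ratios stayed, 504 moved and 12 changed sign. Of the medians of lists, 346 stayed and 129 moved. The 29 control cells limit the depth: a gene with no UMI there may lie at up to 6.66 CPM.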

Other observations

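Csf1, the macrophage growth factor, stood at 113 CPM in control and 119.9 CPM in knockout venular cells, against 25.3 and 77.2 CPM in the other ranked cells. Plvap, Aqp1 and Eng, transcripts of permeable capillary and venous endothelium, were 1.78-fold, 3.105-fold and 2.45-fold higher in control venular cells and 1.86-fold, 4.53-fold and 2.01-fold higher in those of the knockout. Edn1 stood at 504 and 187 CPM in the control runs and 215 and 385 CPM in the knockout runs.

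The venular cells were not spread evenly over the order of cells in the deposited tables. In stretches of that order in which run and barcode ascend, 27 of the 29 control cells lay in 1 of 9 stretches, where they made up 23.1% of 117 ranked cells. Of the 140 knockout cells, 116 lay in 1 of 7 stretches, where they made up 27.0% of 429 ranked cells. The labels do not say what these stretches are.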
